A study of Mus musculus with 24 samples.

Results

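The miR-34 family was followed in mouse mammary glands over 4 stages of development. Its members were taken by name, as the rows of the deposited miRNA table called mmu-miR-34a-5p, mmu-miR-34b-5p, mmu-miR-34b-3p, mmu-miR-34c-5p and mmu-miR-34c-3p (mmu for the mouse, left out from here on), which are 5 of the 1009 miRNAs listed, and none of their measured levels was used to choose them. Whole homogenates of abdominal and inguinal glands came from female C57BL/6 mice (C57/BL6 in the labels), 1 library being made per mouse from 6 mice per stage. W10 stands for adult females 10 weeks old, P18 for pregnant females on day 18, Lac7 for lactating females on day 7, and Inv3 for day 3 of involution, the regression of the gland after lactation. The labels and the study's methods give these days, whereas the series design text has lactation on day 3 and involution on day 7. The labels give no allele or treatment for any mouse, and an age at W10 only. Since a homogenate holds every cell type of the gland, fewer cells of a type and less RNA per cell cannot be told apart.

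miRNAs are short RNAs cut from a hairpin, whose left side gives a 5p and whose right side gives a 3p product, and they repress mRNAs that pair with their seed, bases 2 to 8. The miR-34 family is best known as a set of direct transcriptional targets of the tumor suppressor p53, and its 5p products repress genes of the cell cycle and of cell survival such as Cdk6, Met and Bcl2. miR-34a has a gene of its own and is found in many tissues, while miR-34b and miR-34c are made from a shared transcript and are best known from the testis and from multiciliated epithelia, where the related miR-449 is also made. During involution the milk-secreting epithelium dies by programmed cell death and is replaced by fat and connective tissue.

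The mature sequences are shown because they define the family and decide which products can be told apart by sequencing. RefSeq sequences (GRCm38.p6) were found for 4 of the 5 members, and each is written from 5′ to 3′ with the seed in capitals. The member without one was miR-34c-5p, so its seed and bases were not compared with those of the others. The relatives are miR-34a-3p, the minor product of the miR-34a hairpin, and miR-449a-5p.
The 5p members:
miR-34a-5p: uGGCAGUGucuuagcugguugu
miR-34b-5p: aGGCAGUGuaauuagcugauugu
The 3p members:
miR-34b-3p: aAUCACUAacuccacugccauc
miR-34c-3p: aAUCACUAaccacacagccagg
The relatives:
miR-34a-3p: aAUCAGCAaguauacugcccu
miR-449a-5p: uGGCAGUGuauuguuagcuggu

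Among the sequences shown, the seed GGCAGUG was shared by miR-34a-5p, miR-34b-5p and miR-449a-5p, and the seed AUCACUA by miR-34b-3p and miR-34c-3p. With 1 gap of 1 base, 19 of the 22 bases of miR-34a-5p were the same in miR-34b-5p. miR-34b-3p and miR-34c-3p were identical over their first 10 bases and had the same base at 17 of 22 positions. miR-34a-3p had a seed of its own, AUCAGCA. On GRCm38, miR-34a-5p lies at chr4:150068473-150068494 on the plus strand, in the Mir34a hairpin (chr4:150068454-150068555), the last 17 bases of which overlap an exon of Gm37795, an unclassified transcript of the same strand. miR-34b-5p (chr9:51103610-51103632), miR-34b-3p (chr9:51103574-51103595) and miR-34c-3p (chr9:51103044-51103065) lie on the minus strand. The Mir34b and Mir34c hairpins are 451 bases apart, and both lie within an intron of Btg4, which is read from the opposite strand.

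Levels are given in RPM, the deposited read counts scaled so that the listed miRNAs of every library have the same total. The libraries held 660346 to 1165321 such reads, so that 1 read was worth 0.858 to 1.51 RPM and a count of 0 reads allows up to 2.57 to 4.54 RPM (3 reads), for counting error only. The Lac7 libraries (660346 to 751890 reads) and that of Inv3 mouse 6 (722068 reads) were the shallowest. Differences between stages were tested with limma on log2(RPM + 1) over the 544 miRNAs whose mean reached 1 RPM at any stage, and a miRNA was called when its two-sided Benjamini-Hochberg adjusted p over these 544 was under 0.05. The added 1 RPM shrinks the fold changes of the lowest members. RPM are shares of a library, so a change in a few abundant miRNAs moves all others, and called differences of the members and relatives are also given after scaling by DESeq2 size factors. Defining miRNAs of mammary epithelium were present in every library, with 6 of 6 listed, and their summed level was 15083 to 21387 RPM in W10 mice, 49216 to 64031 in P18 mice, 113795 to 133198 in Lac7 mice and 24194 to 78695 in Inv3 mice.

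miR-34a-5p, the product of the single miR-34a gene, was highest at Inv3. It was measured at 192 ± 50.0 RPM in W10 mice, 261 ± 28.4 in P18 mice, 222 ± 44.2 in Lac7 mice and 469 ± 198 in Inv3 mice (mean ± SD, n = 6 mice), which placed it between ranks 84 and 129 of the 1009 miRNAs. At W10 the lowest mouse had 111 RPM, the median was 194 and the highest had 255. At P18 the lowest was 211 RPM, the median 270.1 and the highest 285, and at Lac7 the same values were 165, 219.6 and 269 RPM. The W10, P18 and Lac7 mice thus overlapped. At Inv3 the lowest was 276 RPM, the median 438 and the highest 735, and all 6 Inv3 mice were above every W10 and Lac7 mouse.

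The increase of miR-34a-5p from lactation to involution was 2.11-fold in the mean, with a log2 fold change of 0.99 (SE 0.22, 95% interval 0.53 to 1.45, limma adjusted p = 0.00062). Against W10, Inv3 was 2.45-fold higher in the mean (log2 fold change 1.22, SE 0.22, limma adjusted p = 9.9e-05). Against P18 the log2 fold change was 0.74 (SE 0.22, limma adjusted p = 0.014), and 4 of 6 Inv3 mice were above all P18 mice. The exact permutation test over every split of the 12 mice into 6 and 6, adjusted over the 544 miRNAs, gave adjusted p = 0.009 for Inv3 against Lac7, 0.014 against W10 and 0.057 against P18. After scaling by size factors the log2 fold changes of Inv3 were 0.81 against Lac7 (limma adjusted p = 0.0023), 1.60 against W10 and 0.87 against P18 (limma adjusted p = 0.0027). The 3 other stages had the order W10, Lac7, P18, and none of these neighbours differed by the test. P18 was 0.48 above W10 on the log2 scale (95% interval 0.03 to 0.94, limma adjusted p = 0.084), a difference that was called after scaling by size factors (0.73, limma adjusted p = 0.0067). Lac7 against W10 likewise had a log2 fold change of 0.24 in RPM (limma adjusted p = 0.36) and of 0.79 after scaling by size factors, where it was called, and Lac7 against P18 changed sign, from -0.25 to 0.06.

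**Figure D1:**
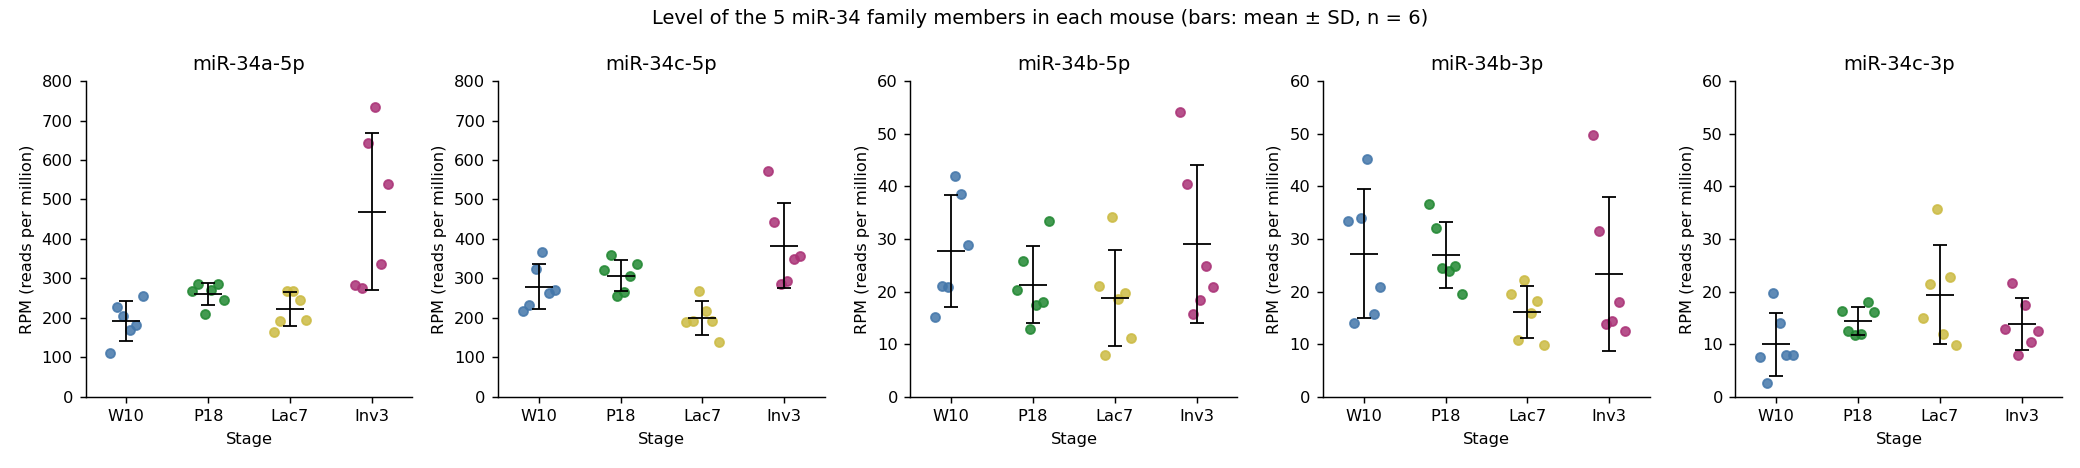
Level of each member in RPM (vertical axes, from 0) by stage (horizontal axes), with 1 point per mouse and bars for the mean ± SD of 6 mice. The left 2 panels share one scale and the other 3 a finer one. miR-34a-5p at Inv3 ran from 276 to 735 RPM, above all W10 and Lac7 mice, while the 4 stages overlapped for miR-34b-5p and miR-34b-3p.

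miR-34c-5p, the main product of the shared miR-34b and miR-34c transcript, was about as abundant as miR-34a-5p and was lowest at lactation. Its mean was 279 ± 56.7 RPM in W10 mice, 307 ± 40.0 in P18 mice, 199 ± 42.6 in Lac7 mice and 383 ± 108 in Inv3 mice (n = 6), between ranks 89 and 113. The lowest, median and highest mice were at 217, 267 and 367 RPM at W10, and at 256, 314 and 358 RPM at P18. They were at 138, 191 and 268 RPM at Lac7. At Inv3 they were at 285, 353 and 572 RPM, so that every Inv3 mouse was above every Lac7 mouse, whereas Inv3 overlapped with W10 and P18.

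From P18 to Lac7, miR-34c-5p fell by 0.64 on the log2 scale (SE 0.17, limma adjusted p = 0.0033), and 5 of 6 Lac7 mice were below all P18 mice. This decrease was not called after scaling by size factors, where it was -0.34 (limma adjusted p = 0.097). From Lac7 to Inv3 it rose 1.92-fold in the mean, with a log2 fold change of 0.92 (SE 0.17, 95% interval 0.57 to 1.28, limma adjusted p = 8.5e-05). The exact permutation test gave adjusted p = 0.009, and scaling by size factors a log2 fold change of 0.75 (limma adjusted p = 0.00042). Lac7 was below W10 by RPM (log2 fold change -0.49, SE 0.17, limma adjusted p = 0.016), but the sign turned after scaling by size factors, to 0.07. Inv3 was above W10 by 0.44 (SE 0.17, limma adjusted p = 0.047), a call that was lost when any 1 of 8 of the 12 mice was left out (W10 mice 1, 2, 5 and 7, and Inv3 mice 1, 2, 5 and 6) and by exact permutation (adjusted p = 0.11), while scaling by size factors gave 0.82 (limma adjusted p = 0.00033). In the order Lac7, W10, P18, Inv3, the neighbours W10 and P18 did not differ by the test (0.15, 95% interval -0.20 to 0.51, limma adjusted p = 0.51), nor did P18 and Inv3 (0.29, 95% interval -0.07 to 0.64, limma adjusted p = 0.25).

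The products of the miR-34b hairpin were far lower, and no difference between stages was called for either of them. miR-34b-5p, which carries the miR-34a-5p seed, was measured at 27.7 ± 10.7 RPM in W10 mice, 21.3 ± 7.29 in P18 mice, 18.8 ± 9.09 in Lac7 mice and 29.1 ± 15.0 in Inv3 mice (n = 6). The lowest, median and highest mice were at 15.1, 24.9 and 42.0 RPM in W10 mice, 12.8, 19.2 and 33.3 in P18 mice, 8.03, 19.2 and 34.1 in Lac7 mice, and 15.8, 22.8 and 54.1 in Inv3 mice. All 4 stages overlapped. These levels rest on 14 to 44 reads per W10 mouse, 12 to 29 per P18 mouse, 6 to 23 per Lac7 mouse and 15 to 63 per Inv3 mouse. The pooled reads of the 6 Lac7 mice, 78, gave 18.5 RPM with an exact Poisson interval of 14.6 to 23.1 RPM for counting error. The limma adjusted p lay between 0.12 and 0.98 over the 6 comparisons, with the widest separation for Inv3 against Lac7 (log2 fold change 0.60, 95% interval -0.08 to 1.28, limma adjusted p = 0.15) and Lac7 against W10 (-0.58, 95% interval -1.27 to 0.10, limma adjusted p = 0.12).

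miR-34b-3p, from the other side of the same hairpin, was as abundant as the 5p product, at 27.2 ± 12.3 RPM in W10 mice, 26.9 ± 6.26 in P18 mice, 16.1 ± 4.94 in Lac7 mice and 23.3 ± 14.7 in Inv3 mice (n = 6). The lowest, median and highest mice were at 14.0, 27.2 and 45.2 RPM in W10 mice, 19.5, 24.7 and 36.7 in P18 mice, 9.83, 17.1 and 22.2 in Lac7 mice, and 12.5, 16.2 and 49.8 in Inv3 mice. The mean was lowest at Lac7, with 7 to 15 reads per mouse, but the median was lower at Inv3. The Lac7 mice overlapped with every other stage. Lac7 had log2 fold changes of -0.74 against P18 (95% interval -1.40 to -0.08, limma adjusted p = 0.064) and -0.66 against W10 (95% interval -1.32 to 0.00, limma adjusted p = 0.072). The exact permutation test called the difference from P18 (adjusted p = 0.013). At Inv3 mouse 1 was at 49.8 RPM and mouse 2 at 31.5, and the other mice were between 12.5 and 18.1 RPM.

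miR-34c-3p was the lowest member at W10, P18 and Inv3 and the only one whose mean was highest at lactation. It was measured at 9.96 ± 6.0 RPM in W10 mice, 14.4 ± 2.71 in P18 mice, 19.4 ± 9.42 in Lac7 mice and 13.8 ± 4.95 in Inv3 mice (n = 6). The lowest, median and highest mice were at 2.62, 7.92 and 19.8 RPM in W10 mice, 11.7, 14.3 and 18.0 in P18 mice, 9.83, 18.2 and 35.6 in Lac7 mice, and 7.90, 12.7 and 21.6 in Inv3 mice. All stages overlapped, and 1 W10 mouse held 3 reads, within what a count of 0 allows. Lac7 was above W10 with a log2 fold change of 0.97 (SE 0.34, 95% interval 0.27 to 1.68, limma adjusted p = 0.014). The pooled reads were 58 at W10, or 9.57 RPM (exact Poisson interval 7.27 to 12.4), and 81 at Lac7, or 19.2 RPM (15.3 to 23.9). This call was lost without W10 mouse 2 (limma adjusted p = 0.058) and by exact permutation (adjusted p = 0.072). Scaling by size factors gave 1.47 for Lac7 against W10 (limma adjusted p = 0.00037), and also called P18 (0.88) and Inv3 (0.90) above W10.

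**Figure D2:**
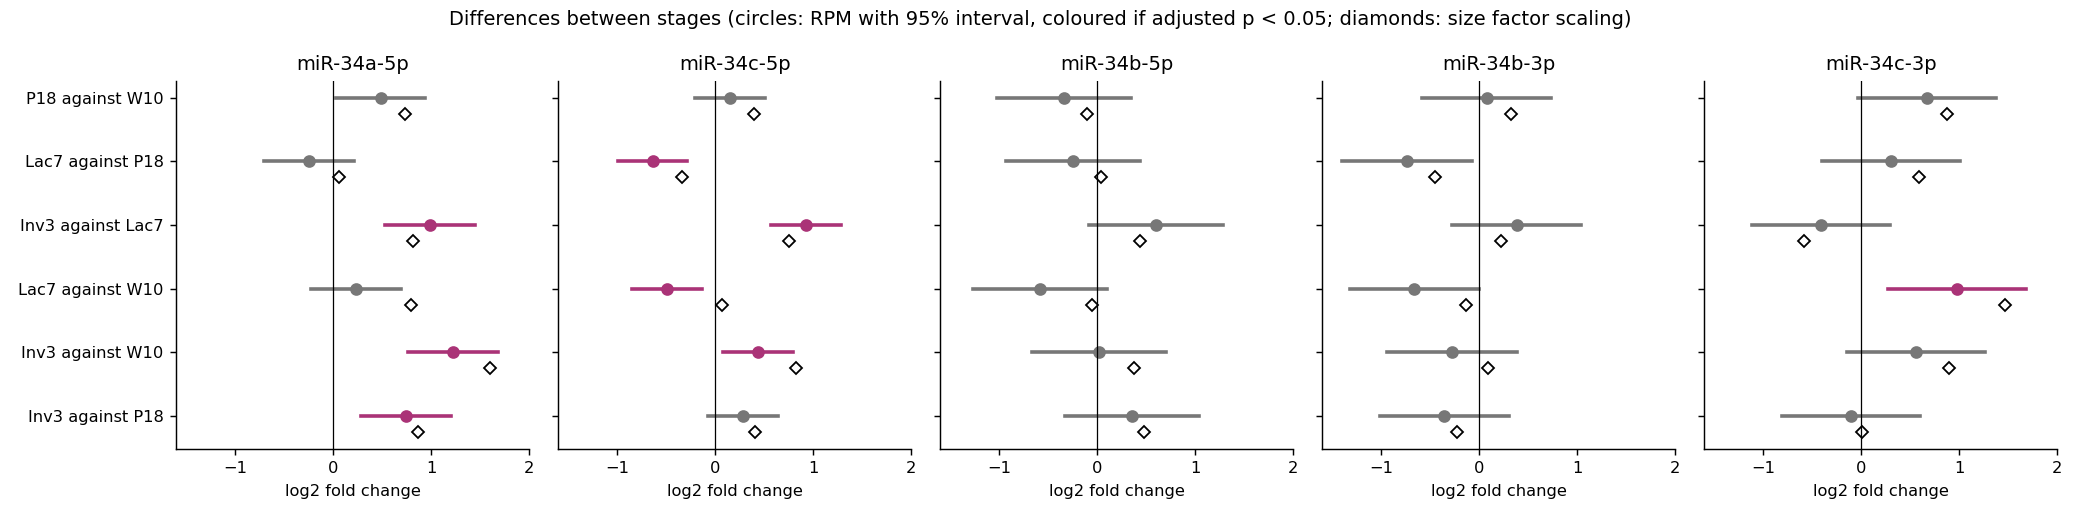
log2 fold change of each member (horizontal axes) in the 6 comparisons of stages (vertical axis). Circles with lines are limma estimates on log2(RPM + 1) with 95% intervals, coloured where the adjusted p was under 0.05 and grey elsewhere, and open diamonds are the estimates after scaling by DESeq2 size factors. Coloured circles stand for 7 differences of miR-34a-5p and miR-34c-5p and for 1 of miR-34c-3p, and for miR-34c-5p the diamond of Lac7 against W10 lies on the other side of 0.

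The mean 3p share of the miR-34c hairpin was highest at lactation, where it rests on 7 to 24 3p reads per mouse. The 3p product made up 3.28% ± 1.5 of the reads of the hairpin in W10 mice, 4.50% ± 0.72 in P18 mice, 8.60% ± 2.56 in Lac7 mice and 3.57% ± 1.29 in Inv3 mice (n = 6). The range was 1.12% to 5.75% in W10 mice, 3.35% to 5.56% in P18 mice, 5.23% to 11.7% in Lac7 mice and 2.20% to 5.59% in Inv3 mice. The Lac7 mice were thus highest, with an overlap between the lowest of them and the highest of each other stage. Pooled over the mice, 81 of 919 reads at Lac7 were 3p, or 8.81% (Wilson interval 7.15% to 10.8%), against 84 of 2442 at Inv3, or 3.44% (2.79% to 4.24%), and these intervals cover counting error only. A share within 1 hairpin does not depend on the scaling of the library. No such rise at Lac7 was seen for miR-34b. Its 3p share was 49.0% ± 14.8 in W10 mice, 56.4% ± 10.3 in P18 mice, 47.6% ± 5.67 in Lac7 mice and 43.6% ± 3.67 in Inv3 mice. These shares are descriptions, and no test was run on them. Ligation and amplification can favour 1 sequence over another, so a share of reads is not a share of molecules.

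**Figure D3:**
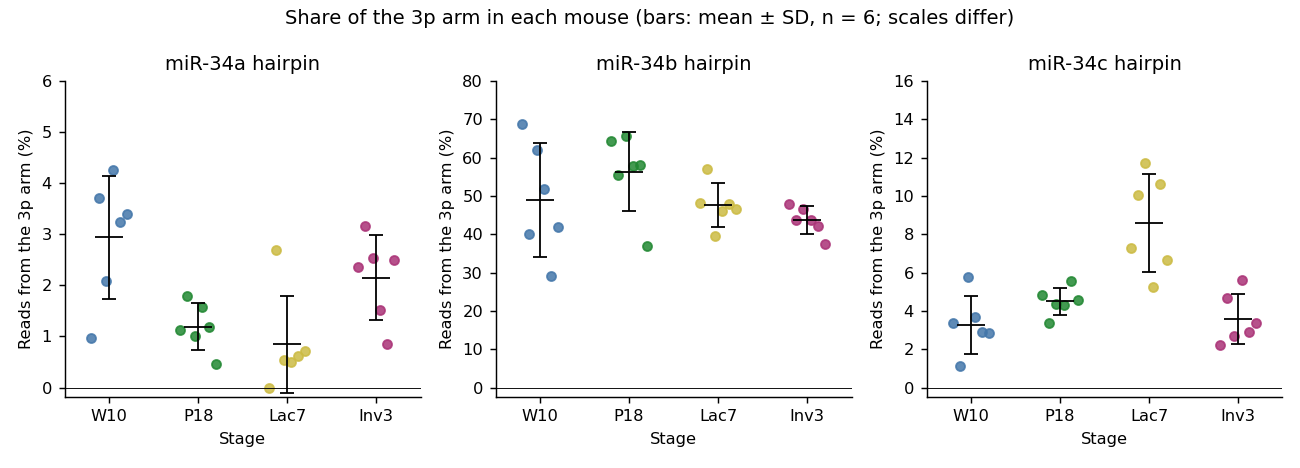
Share of the reads of each hairpin that came from its 3p side, in percent (vertical axes, with scales that differ), by stage, with 1 point per mouse and bars for the mean ± SD of 6 mice. The miR-34c share at Lac7 was 8.60% on average against 3.28% to 4.50% at the other stages, and the miR-34b share lay near even at all 4.

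Of 6 named relatives of the family, 2 were listed, both at low read counts. miR-34a-3p, the minor side of the miR-34a hairpin, had 38 reads over the 6 mice in W10 mice (6.14 ± 3.01 RPM), 19 in P18 mice (3.22 ± 1.46), 8 in Lac7 mice (1.84 ± 1.81) and 59 in Inv3 mice (10.1 ± 4.99). At Lac7, 5 of 6 mice held 3 reads or fewer and 1 of them held 0. Inv3 was above Lac7 with a log2 fold change of 2.02 (SE 0.43, limma adjusted p = 0.00032), and 1.94 after scaling by size factors. Against P18 it was 1.32 (SE 0.43, limma adjusted p = 0.021), or 1.42 by size factors, and not called by exact permutation (adjusted p = 0.057). Inv3 against W10 was not called (0.65, limma adjusted p = 0.23). Lac7 was below W10 (log2 fold change -1.37, SE 0.43, limma adjusted p = 0.0069), with -0.98 after scaling by size factors (limma adjusted p = 0.047). Its share of the hairpin was 2.94% ± 1.21 in W10 mice, 1.19% ± 0.46 in P18 mice, 0.85% ± 0.94 in Lac7 mice and 2.15% ± 0.83 in Inv3 mice. miR-449a-5p, which shares the GGCAGUG seed and marks multiciliated cells, had 11, 3, 4 and 4 reads over the 6 mice of W10, P18, Lac7 and Inv3. Its level was between 0 and 4.37 RPM, with at most 5 reads in any library. The test called it lower at P18 than at W10 (limma adjusted p = 0.048), on 3 against 11 reads. Neither the exact permutation test (adjusted p = 0.081) nor scaling by size factors (-0.73, limma adjusted p = 0.12) called this difference. Exact permutation called it lower at Inv3 than at W10 (adjusted p = 0.027), on 4 against 11 reads, where limma did not (limma adjusted p = 0.13). Of 3 miRNAs typical of germ cells of the testis, the 1 that was listed, miR-741-3p, lay between 0 and 1.38 RPM and was at 0 in all Lac7 mice.

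Summed over its 5 members, the family was at 535 ± 92.0 RPM in W10 mice (384 to 637), 631 ± 68.8 in P18 mice (516 to 714), 476 ± 96.6 in Lac7 mice (362 to 629) and 919 ± 123 in Inv3 mice (738 to 1079). The Inv3 mice were above all mice of the other stages. miR-34a-5p and miR-34c-5p made up most of this sum, and their proportion shifted. For each read of miR-34c-5p there were 0.70 ± 0.22 reads of miR-34a-5p in W10 mice, 0.86 ± 0.10 in P18 mice, 1.13 ± 0.21 in Lac7 mice and 1.39 ± 0.85 in Inv3 mice. miR-34a-5p was the more abundant in 0 of 6 W10 mice, 1 P18 mouse, 4 Lac7 mice and 3 Inv3 mice. No test was run on the sums and proportions.

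The 6 Inv3 mice differed more from each other in miR-34a-5p than mice of any other stage, with a coefficient of variation of 42.2% against 10.9% to 26.1%, and counting alone would give 4.73%. From mouse 1 to mouse 6, miR-34a-5p was at 283, 276, 644, 735, 335 and 540.1 RPM. miR-34c-5p was at 572, 442, 285, 294, 349.6 and 357 RPM in the same mice. The mice with the most miR-34a-5p, 3 and 4, thus had the least miR-34c-5p, and mice 1 and 2 had the reverse. The reads of miR-34a-5p per read of miR-34c-5p were 0.49, 0.63, 2.26, 2.50, 0.96 and 1.51. The summed level of 6 epithelial miRNAs (the miR-200 family among them) was 27647, 24194, 73942, 60272, 31013 and 78695 RPM in mice 1 to 6, so mice 3, 4 and 6 were high in both miR-34a-5p and the epithelial sum. The summed level of 5 stromal miRNAs was 334463, 302322, 276341, 284262, 349601 and 256725 RPM, and that of 5 leukocyte miRNAs 23991, 23764, 13122, 15364, 17061 and 17372 RPM. Both were lower in mice 3 and 4 than in mice 1 and 2. The stromal sum at Inv3 was mostly miR-143-3p (mean 246220 RPM). After subtracting stage means over the 24 libraries, Pearson's r with miR-34a-5p was -0.43 for miR-143-3p. It was 0.43 for miR-143-5p, which is not in the sum. For miR-205-5p, which is in the epithelial sum, r with miR-34c-5p was 0.68. The summed level of 2 endothelial miRNAs was 12987, 12532, 16725, 17959, 15656 and 17703 RPM, so it was also highest in mice 3, 4 and 6. The part of these cell types in the levels of the members was not tested.

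**Figure D4:**
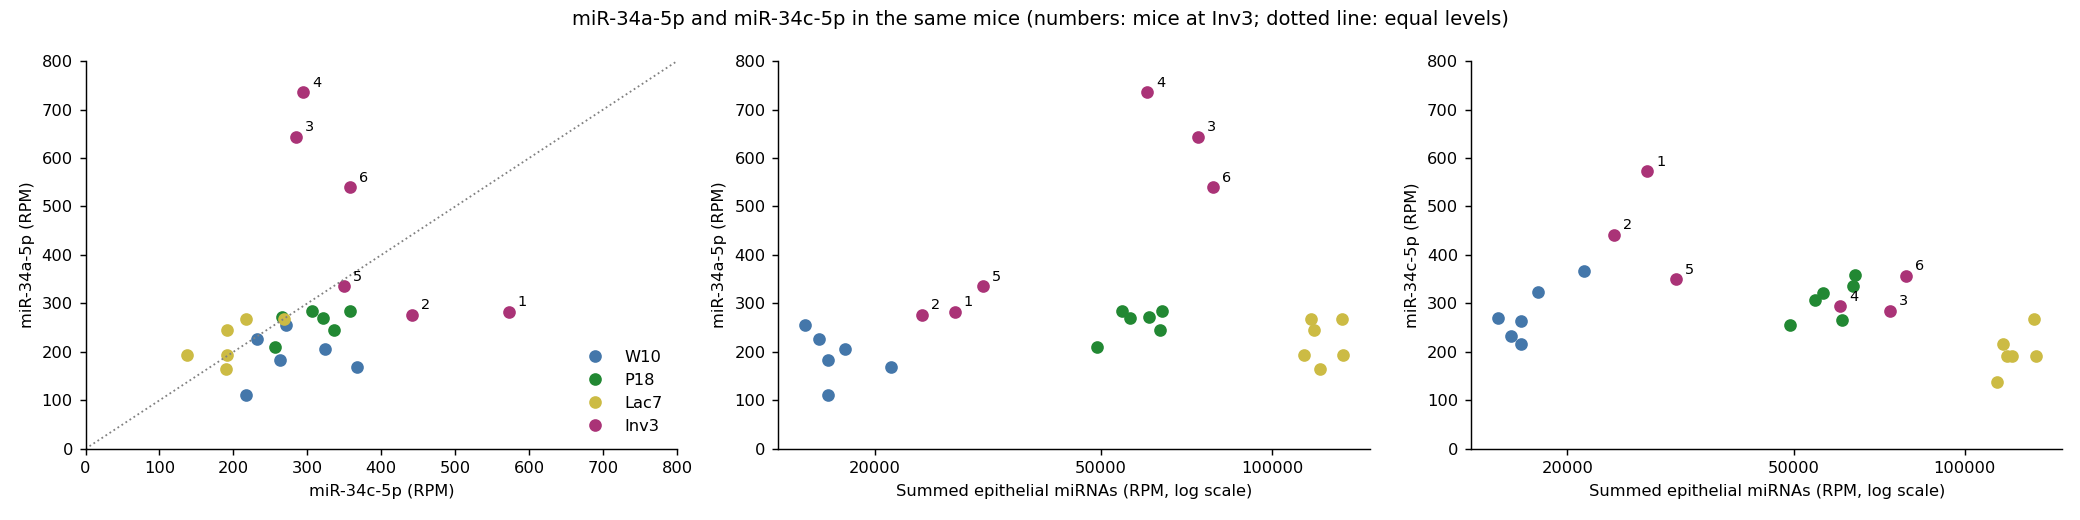
miR-34a-5p against miR-34c-5p (left), miR-34a-5p against the summed RPM of 6 epithelial miRNAs (middle, log axis) and miR-34c-5p against the same sum (right, log axis), all in RPM, with 1 point per mouse coloured by stage. Numbers name the Inv3 mice and the dotted line marks equal levels. Mice 3, 4 and 6 lie above the line with 540.1 to 735 RPM of miR-34a-5p, and mice 1 and 2 lie below it.

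The same cell type miRNAs also differed between stages, beside the differences of the members. Stromal miRNAs, 5 of 5 listed, summed to 169005 to 211305 RPM in W10 mice, 191012 to 214796 in P18 mice, 147025 to 171127 in Lac7 mice and 256725 to 349601 in Inv3 mice. This sum was lowest at Lac7 and highest at Inv3, as miR-34c-5p was, but its miRNAs did not all share that order. miR-145a-5p did. miR-143-3p, most of the sum at Inv3 (mean 246220 RPM), was lowest at W10 (92349 RPM). miR-214-3p was highest at W10, at 1107 RPM against 164 at Lac7 and 461 at Inv3. Leukocyte miRNAs, 5 of 5 listed, summed to 25590 to 48957 RPM in W10 mice, 7095 to 23550 in P18 mice, 3993 to 12161 in Lac7 mice and 13122 to 23991 in Inv3 mice. The epithelial sum was highest at Lac7, where miR-34a-5p was not. miR-141-3p and miR-200c-3p in it were highest there too, at means of 6411 and 8824 RPM. miR-205-5p, which the sum also includes, was lowest there, at 155 RPM against 688 at Inv3. Endothelial miRNAs stayed between 12532 and 19549 RPM over all stages, those of red blood cells between 371 and 1953, and those of skeletal muscle ran from 2308 to 22907 RPM at W10 and from 104 to 4843 at the other stages. Their part in the differences of the members was not tested.

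Counted over the 5 members, few differences were called. From W10 to P18 none of the 5 was called, and over all 544 miRNAs 41.5% were. From P18 to Lac7, 1 member was called lower (miR-34c-5p), against 31.4% of all miRNAs. From Lac7 to Inv3, 2 members were called higher (miR-34a-5p and miR-34c-5p) against 27.9% of all, and for these 2 the mice did not overlap, against 24.8% of all. From W10 to Lac7, 1 was called higher (miR-34c-3p) and 1 lower (miR-34c-5p), against 18.2% and 48.5%. From W10 to Inv3, 2 were called higher (miR-34a-5p and miR-34c-5p) against 7.9% of all, and the mice did not overlap for miR-34a-5p, against 15.1% of all. From P18 to Inv3, 1 was called higher (miR-34a-5p) against 10.8%. The median log2 fold change over the 5 members was 0.60 from Lac7 to Inv3 and 0.44 from W10 to Inv3, beside 0.28 and -0.41 over all 544 miRNAs. The comparisons share stages and are not independent of each other.

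The scaling moved these values. With RPM the median log2 fold change over all 544 miRNAs was -0.32 for P18 against W10, -0.34 for Lac7 against P18, 0.28 for Inv3 against Lac7, -0.66 for Lac7 against W10, -0.41 for Inv3 against W10 and -0.11 for Inv3 against P18. After scaling by size factors it was -0.12, -0.14, 0.18, -0.31, -0.10 and -0.02. In some draws of simulated libraries the test on RPM called many unchanged miRNAs, and the test on values scaled by size factors called few in each draw. In these draws as many miRNAs were raised as lowered. The stages were less even, with 18.2% of miRNAs called higher and 48.5% lower in Lac7 against W10. The draws therefore cannot rank the scalings for these stages, and a call made on RPM alone depends on the scaling. The calls that both scalings made were those of miR-34a-5p in all 3 comparisons of Inv3, of miR-34c-5p in Inv3 against Lac7 and W10, and of miR-34c-3p in Lac7 against W10. Relative to the other miRNAs tested, miR-34a-5p was above the median change in each of the 3 comparisons of Inv3, by both scalings.

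On RPM, other miRNAs linked to p53, as its targets or as RNAs whose processing it promotes, were called in both directions in every comparison. No test was run on them as a set. The list held 11, of which 11 were tested, and it was chosen with earlier results of these data known. From Lac7 to Inv3, 5 were called higher and 4 lower, beside 27.9% and 18.9% of all miRNAs, with a median log2 fold change of 0.24 beside 0.28. The 5 were miR-143-3p and miR-145a-5p, made in smooth muscle and fibroblasts, miR-15a-5p and miR-16-5p, which repress cell cycle genes, and miR-22-3p. miR-145a-5p rose by 0.95 on the log2 scale (SE 0.17, limma adjusted p = 4.2e-05; 0.78 by size factors) and miR-143-3p by 0.82 (SE 0.09, limma adjusted p = 1.6e-08; 0.65 by size factors). By size factors miR-22-3p was no longer called (0.35, limma adjusted p = 0.13). The 4 that fell were miR-141-3p and miR-200c-3p, which keep epithelial cells epithelial, miR-107-3p and miR-192-5p. miR-141-3p fell by 2.70 (SE 0.27, limma adjusted p = 4.8e-09), from 6411 ± 381 RPM to 1158 ± 665, with -2.87 by size factors. miR-194-5p (0.20, limma adjusted p = 0.36) and miR-215-5p (0.24, limma adjusted p = 0.67) were not called. From W10 to Inv3, 4 were called higher (miR-141-3p, miR-143-3p, miR-145a-5p and miR-200c-3p) and 3 lower, beside 7.9% and 31.2% of all, with a median of -0.27, and after scaling by size factors the 3 were no longer called. In P18 against W10 the list had 3 higher and 3 lower (12.1% and 29.4% of all miRNAs), and in Lac7 against P18 3 and 2 (13.8% and 31.4%). In Lac7 against W10 it had 5 and 5 (18.2% and 48.5%), and in Inv3 against P18 3 and 1 (10.8% and 17.6%). After scaling by size factors, Lac7 against P18 gave 5 higher and 1 lower, and Lac7 against W10 5 and 2.

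The miRNAs with the pattern most like each member were sought among 186 miRNAs outside the family whose mean reached 100 RPM at any stage, by Pearson's r on log2(RPM + 1) over the 24 libraries. The libraries share 4 stages and a fixed total, so each r is a description, and r after subtracting the stage means is given beside it. miR-34c-5p was most like miR-205-5p, a miRNA of basal epithelial cells (r = 0.87, and 0.68 within stages), followed by miR-145a-3p (0.84 and 0.63) and miR-145a-5p (0.70 and 0.48). miR-205-5p had means of 437 RPM for W10, 461 for P18, 155 for Lac7 and 688 for Inv3, the same order of stages as miR-34c-5p. miR-34a-5p was most like miR-143-5p (0.71 and 0.43), miR-31-5p (0.70 and 0.60) and miR-143-3p (0.68), and for the last of these the sign turned within stages (-0.43). miR-34b-5p was most like miR-497a-5p (0.64 and 0.78), miR-145a-3p (0.64 and 0.72) and miR-15a-5p (0.58 and 0.50), and miR-34b-3p like miR-205-5p (0.66 and 0.84), miR-214-3p (0.66 and 0.73) and miR-195a-5p (0.65 and 0.61). miR-34c-3p was most like miR-24-3p (0.58 and 0.31), miR-200a-5p (0.52 and 0.04) and miR-27b-3p (0.52 and 0.03).

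Within the family, likeness between members differed by pair. Over the 24 libraries r was 0.71 between miR-34b-5p and miR-34c-5p (0.80 within stages) and 0.63 between miR-34b-3p and miR-34c-5p (0.73 within stages). The sequences of miR-34b-5p and miR-34c-5p were not compared, and miR-34c-5p had far more reads (1676 against 169 over the W10 mice). Whether some reads of miR-34c-5p were assigned to miR-34b-5p was not tested. For miR-34c-3p, from the same transcript, r was 0.09 with miR-34b-5p, 0.21 with miR-34b-3p and 0.15 with miR-34c-5p, and within stages 0.35, 0.53 and 0.58. Between miR-34a-5p and miR-34c-5p it was 0.35, and -0.20 within stages. miR-34a-5p and its own 3p product had r = 0.59, and 0.59 within stages. The miR-34b hairpin gave 15.8% ± 2.25 of the reads of the miR-34b and miR-34c hairpins in W10 mice, 12.99% ± 0.98 in P18 mice, 13.5% ± 3.04 in Lac7 mice and 11.0% ± 2.67 in Inv3 mice.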

How the data were processed

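The authors extracted small RNA with a mirVana kit, made libraries with a QIAseq miRNA kit and assigned the reads with QuickMIRSeq and miRBase 22. The submitters' processing notes also name Trimmomatic 0.36, cutadapt, FastQC, MultiQC and GRCm38. The deposited values are RPM, read counts scaled to the same total over the listed miRNAs, for 1009 miRNAs in 24 libraries. Within a library they were whole multiples of what 1 read is worth, and whole reads came back for 100% of the values (tolerance 0.1 read). Whether molecular identifiers were counted is not given in the sources used here. The lowest chi-square per degree of freedom between libraries of a stage was 9.63, so all were counted as separate samples.

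The members, taken by name and not by their levels, and the lists were chosen with earlier results of these data known. limma 3.58.1 in R 4.3.3 (trended eBayes, values as log2 of RPM with 1 added) tested the 544 miRNAs whose mean reached 1 RPM at any stage, in 1 fit over the 24 libraries, with Benjamini-Hochberg adjustment. The miRNAs named were the members, their relatives, the p53-linked list and, for each member with a mean of at least 10 RPM, the 3 most like it. Alternatives were pseudocounts of 0.1 and 10, no filter, a filter at 100 RPM, a fit of the 12 libraries compared, a block for the mouse number, DESeq2 1.42.0 size factors, edgeR 4.0.16 and DESeq2 on the recovered reads, exact permutation, a limit of 1 on the absolute log2 fold change, and each mouse left out. The tests were tried on simulated P18 and W10 libraries, in which as many miRNAs were raised as lowered. A first draw gave few false calls on RPM and a second, with another random seed, gave many, so a series of draws was made. In it limma on RPM recovered most changed miRNAs, none in the wrong direction, and made few false calls in most draws but many in some, while limma with size factors and edgeR made few in every draw. limma on RPM was kept as the main test because it had been set beforehand, and size factor values are given beside its calls of members and relatives. Sequences are from RefSeq and gene positions from GENCODE M21 (GRCm38). Figures were drawn with matplotlib 3.10.9.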

Additional observations from a re-analysis of the deposited data

Results flagged for a closer look

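Dixon's test was applied to 56 groups of 6 mice and marked 2 of them, where chance marks about 1 in 20. At Lac7, mouse 2 stood apart in the 3p share of the miR-34a hairpin, at 2.70% of its reads, with a gap to the next mouse of 0.73 of the range of the group, and this rests on few reads. At P18, mouse 6 stood apart in the 3p share of the miR-34b hairpin, at 37.0% against a group mean of 56.4%, with a gap of 0.64 of the range. In both cases the cause was not tested.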

How the results depend on the processing

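For miR-34a-5p, Inv3 against W10 kept its direction and its call under all alternatives run, and Inv3 against Lac7 did so for miR-34a-5p and miR-34c-5p under all except a limit of 1 on the absolute log2 fold change. That limit ended 7 calls: miR-34a-5p in Inv3 against Lac7 (0.99) and P18 (0.74), miR-34c-5p in Lac7 against P18 (-0.64), Inv3 against Lac7 (0.92), Lac7 against W10 (-0.49) and Inv3 against W10 (0.44), and miR-34c-3p in Lac7 against W10 (0.97). The causes of the other changes were not tested. Scaling by size factors, edgeR and DESeq2 in turn made these differences called: miR-34a-5p in P18 against W10 (0.73, 0.75, 0.70) and Lac7 against W10 (0.79, 0.68, 0.77), and miR-34c-3p in P18 against W10 (0.88, 0.86, 0.83) and Inv3 against W10 (0.90, 0.91, 0.89). edgeR and DESeq2 also called miR-34c-5p in P18 against W10 (0.44, 0.39), and DESeq2 in Inv3 against P18 (0.46). Size factors and DESeq2 turned the sign of Lac7 against P18 for miR-34a-5p (0.06, 0.07) and miR-34b-5p (0.04, 0.12) and of Lac7 against W10 for miR-34c-5p (0.07, 0.07; edgeR -0.02, not called), and ended the call of miR-34c-5p in Lac7 against P18 (-0.34, -0.33). Size factors, edgeR and DESeq2 turned the sign for miR-34b-3p in Inv3 against W10 (0.09, 0.23, 0.20) and for miR-34c-3p in Inv3 against P18 (0.01, 0.04, 0.06).

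The fit of the 12 libraries compared and exact permutation called miR-34a-5p in P18 against W10 (0.48 in both) and miR-34b-3p in Lac7 against P18 (-0.74 in both). miR-34c-5p in Inv3 against W10 was not called by the 12-library fit (0.44), without a filter (0.44) or by exact permutation (0.44), which also ended the calls of miR-34a-5p in Inv3 against P18 (0.74) and miR-34c-3p in Lac7 against W10 (0.97). The labels do not say that mice of the same number share a litter or a day. Once stage means were subtracted, the correlation averaged -0.05 over 33 same-numbered pairs of libraries (from -0.79 to 0.61) and 0.00 over 183 others (from -0.83 to 0.79). Such averages cannot show whether single pairs share one. A replicate block on these numbers gave miR-34a-5p 0.57 in P18 against W10, now called, and miR-34c-5p -0.46 in Lac7 against W10 and 0.46 in Inv3 against W10, no longer called.

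Leaving out each mouse in turn gave these ranges of log2 fold changes where a call or sign changed. For miR-34a-5p P18 against W10 ran from 0.34 to 0.57. For miR-34b-5p Lac7 against W10 ran from -0.77 to -0.38 and Inv3 against W10 from -0.19 to 0.16. For miR-34b-3p P18 against W10 ran from -0.08 to 0.24, Lac7 against P18 from -0.84 to -0.62 and Lac7 against W10 from -0.82 to -0.49. For miR-34c-5p Lac7 against W10 ran from -0.58 to -0.39, with the call lost without Lac7 mouse 6, and Inv3 against W10 from 0.31 to 0.52. For miR-34c-3p P18 against W10 ran from 0.39 to 0.89, Lac7 against W10 from 0.69 to 1.20 and Inv3 against P18 from -0.24 to 0.03. For the p53-linked list, the 3 called lower in Inv3 against W10 became 1 with the replicate block and 1 to 5 without each mouse. A filter at 100 RPM leaves no value for miR-34b-5p, miR-34b-3p and miR-34c-3p. It also cut the calls over all miRNAs from 226 to 127 in P18 against W10, 246 to 132 in Lac7 against P18, 255 to 151 in Inv3 against Lac7, 363 to 164 in Lac7 against W10, 213 to 123 in Inv3 against W10 and 155 to 101 in Inv3 against P18, since fewer were tested.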
